A study of Mus musculus with 2 samples.

Results

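B cells without a detected Ighd transcript were examined in a droplet library of leukocytes from mice bearing 4T1 liver metastases, beside the B cells of the same library in which Ighd was detected. A barcode was taken as a B cell without Ighd when it held at least 3 unique molecular identifiers (UMIs) of Cd79a, Cd79b and Ms4a1 together, none of Ighd and none of Cd3d, Cd3e or Cd3g. Of 9591 barcodes, 282 met this rule and 254 of them carried a usable hashtag. There were 107 such cells in the vehicle group, 96 in the low-dose group and 51 in the high-dose group, beside 400, 365 and 331 Ighd-positive B cells. The whole series held 14421 barcodes.

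The mice were female BALB/c animals (BALB/cAnNCrl in the labels). The 4T1 line, a mouse mammary carcinoma, had been seeded to the liver by a method that removes part of the spleen. Cells were taken 5 days after infusion of the hepatic artery with vehicle or with CBL0137 at one of its low and high doses. CBL0137 is a small molecule that binds DNA and loosens nucleosomes. Each group was a pool of 2 mice, marked with its own hashtag antibody and run in 1 library with the others, so the design held no replicate and no test was made. In sums over such a pool, fewer cells of a type and less RNA per cell cannot be told apart. All intervals below cover counting error at 95% and nothing else, and mouse and treatment cannot be told apart.

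The labels and files of this library disagree. The labels call it liver, whereas the name of its matrix says spleen. The hepatocyte genes Alb, Apoa1 and Ttr and the Kupffer cell gene Clec4f had 0 UMIs in these cells. The study's methods describe cells isolated with CD11b beads, and the labels describe leukocytes from a density gradient. Whether a bead selection shaped these B cells was not tested. Both libraries shared 15 barcodes, of which 0 were members.

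IgM and IgD are made from one primary transcript by alternative splicing, and mature follicular B cells carry both. Marginal zone B cells have little IgD, precursors and newly formed B cells have not yet made it, and plasma cells have lost it. The precursors are known by the surrogate light chain genes Vpreb1, Vpreb2 and Igll1, which stand in for the light chain, and by Rag1, Rag2 and Dntt, which cut and extend the antigen receptor genes. Plasma cells are known by Jchain, which joins IgM and IgA into polymers, and by genes of the secretory pathway. Ighd and Ighm lie side by side on chromosome 12 (mm10, chr12:113406604-113416324 and chr12:113418558-113422730, both on the minus strand).

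The groups were told apart by 3 antibody-borne barcodes, shown because every group value rests on them, with the whole barcode in capitals, 5′ to 3′.
A0301, vehicle: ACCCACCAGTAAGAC
A0305, low dose: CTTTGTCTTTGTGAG
A0310, high dose: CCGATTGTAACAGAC
A barcode was given to the hashtag with the most UMIs when that hashtag had at least 10 UMIs and at least 3 times the next. The median count of the leading hashtag in the members was 545.0 UMIs in vehicle, 857.5 in low dose and 368.0 in high dose.

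The values that chose the members set the limits of the class. The median member held 17.0 UMIs of the B cell genes, and the median Ighd-positive cell held 20.5 of them and 4.00 UMIs of Ighd. Just inside the rule were 31 barcodes with exactly 3 UMIs of the B cell genes, and just outside were 66 with exactly 2. A further 156 barcodes had exactly 1 UMI of Ighd. Cd79a and Cd79b, the signaling chains of the B cell receptor, were both found in 214 members, and 26 members had only 1 of the 3 B cell genes. Among 2668 T cells, which should lack Ighd, 58 (2.17%) had a UMI of it at a median depth of 5042 UMIs, so a single Ighd UMI can come from free RNA. T cells were barcodes with at least 3 UMIs of the Cd3 genes together and none of Cd79a, Cd79b or Ms4a1. Barcodes with free RNA of those B cell genes were thus left out, so T cell shares may understate free RNA.

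B cells without Ighd made up 3.18% of assigned barcodes in vehicle (Clopper-Pearson interval 2.62 to 3.84), 2.82% in low dose (2.29 to 3.43) and 2.38% in high dose (1.78 to 3.12). The high-dose share lay 0.805 points under that of vehicle, a difference of -0.805 with an interval of -1.69 to 0.126 that spans 0. As counted, 21.1% of vehicle B cells, 20.8% of low-dose and 13.4% of high-dose B cells had no Ighd UMI, and high dose minus vehicle was -7.75 points (-12.8 to -2.59). After every B cell was thinned to 1000 UMIs the shares were 43.6%, 48.5% and 42.5%, and the difference was -1.09 points (-7.93 to 5.79), with 18, 24 and 17 shallower cells left out. At 2000 UMIs it was -5.03 points (-11.2 to 1.28) and at 500 UMIs 0.833 points (-5.80 to 7.42). The interval of this difference thus spanned 0 at all 3 thinned depths and not as counted. Low dose minus vehicle was 4.95 points at 1000 UMIs (-1.63 to 11.5) and 7.38 at 500 (1.21 to 13.5).

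**Figure D1:**
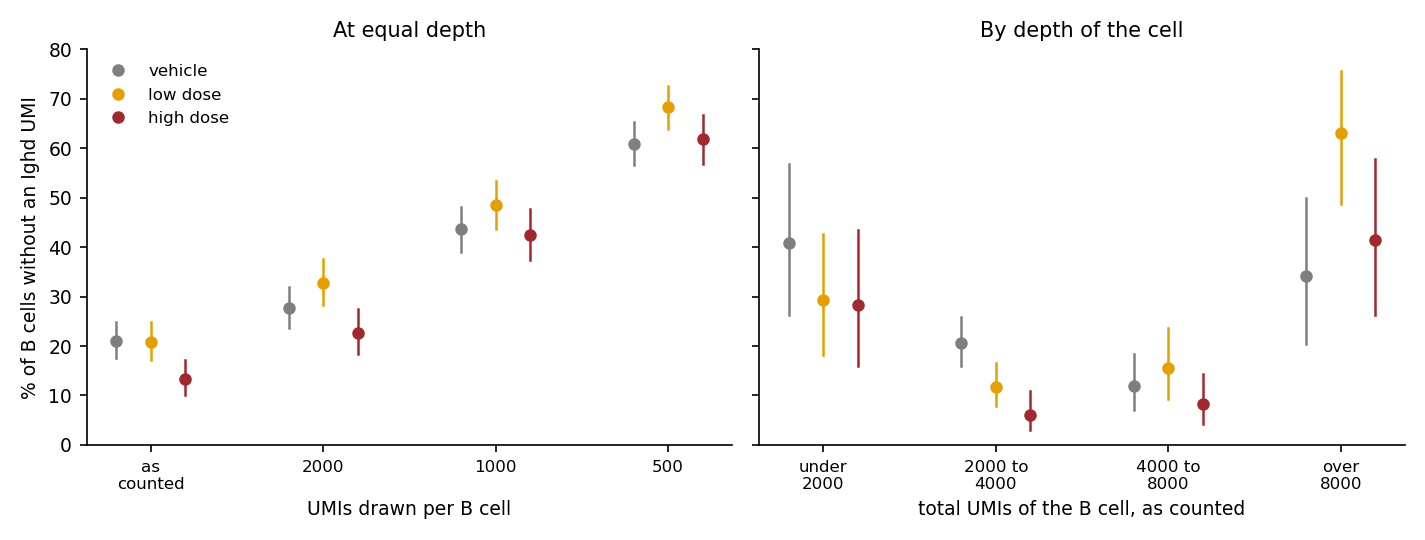
Share of B cells without an Ighd UMI per group (y axis, percent), with 95% Clopper-Pearson intervals, against the number of UMIs drawn per cell (left) and against the depth of the cell (right). The 3 groups overlap at 1000 UMIs, and the share is lowest at middle depths and reaches 63.0% in low-dose cells over 8000 UMIs.

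The share also varied with the depth of the cell. In cells of 2000 to 4000 UMIs it was 20.7% in vehicle (16.0 to 25.9), 11.7% in low dose (7.93 to 16.5) and 6.13% in high dose (2.98 to 11.0). The vehicle and high-dose intervals, which cover counting error only, were apart in this depth range and overlapped in the others. The early-gene cluster, described with the other clusters below, held 48 vehicle cells with a median in this range (2845 UMIs). Its part in this difference was not tested. In cells of 4000 to 8000 UMIs the share was 11.9% in vehicle, 15.5% in low dose and 8.33% in high dose. Over 8000 UMIs it was 34.1%, 63.0% and 41.5%. The share was thus lowest at middle depths in each group. The deep cells weighed heavily in summed levels, since the 10 deepest members held 50.5% of the members' UMIs in vehicle, 45.8% in low dose and 67.1% in high dose. Immunoglobulin genes took 9.20%, 15.1% and 14.5% of the members' UMIs, against 1.54%, 1.26% and 2.18% in the Ighd-positive cells.

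The marker genes given for these cells were compared with the Ighd-positive cells. Levels are UMIs summed over the cells of a group, per 1000000 of all UMIs (CPM), with exact Poisson intervals. Cd79a stood at 1452 CPM (1363 to 1545) in vehicle, 770.0 (719.1 to 823.5) in low dose and 1066 (978.9 to 1159) in high dose, and in Ighd-positive cells at 2425, 2305 and 2370. Cd79a was used by the rule, so its level is a description. Cr2, the complement receptor of mature B cells, was at 69.8, 152.2 and 126.0 CPM in the members and at 351.7, 343.2 and 543.9 in Ighd-positive cells, so it was lower in the members of each group.

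Ebf1, the transcription factor that sets the B cell program, was at 1789 CPM in vehicle members (1690 to 1892), 404.0 in low dose (367.4 to 443.3) and 519.5 in high dose (459.2 to 585.6). Vpreb3, which binds newly made heavy chains, was at 1370 CPM (1284 to 1461), 69.8 (55.0 to 87.2) and 201.6 (164.7 to 244.3). In Ighd-positive cells Ebf1 was at 1596, 1532 and 1614 CPM and Vpreb3 at 406.7, 225.3 and 329.5. Ebf1 in vehicle members was thus near the level of Ighd-positive cells and under it in both dosed groups, and Vpreb3 was above that level in vehicle members alone. Without the early-gene cluster, which is described with the other clusters, Ebf1 in vehicle members was at 632.9 CPM and Vpreb3 at 300.4. In the pair of B cell clusters described there, Ebf1 was at 1750, 1238 and 1602 CPM, within 2-fold of Ighd-positive cells in each group. Vpreb3 was there at 698.8, 138.2 and 157.0 CPM. The cells are named here by their rule.

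**Figure D2:**
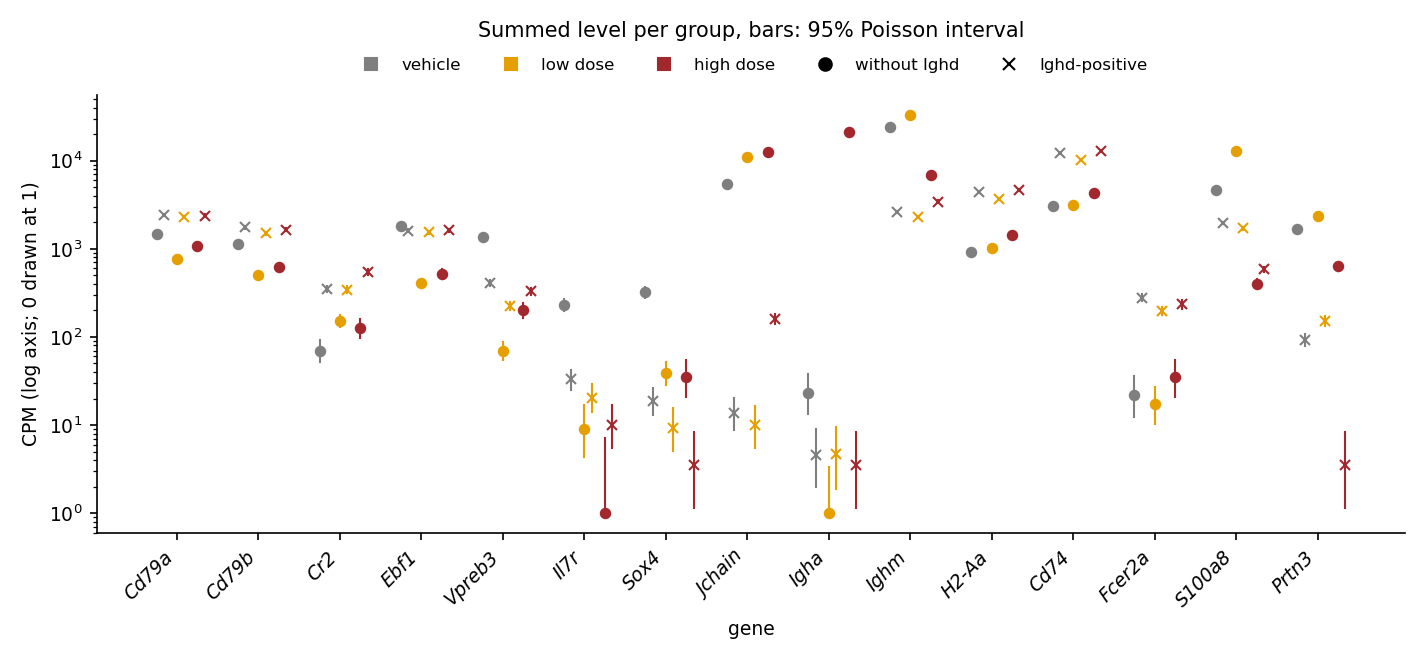
Summed level of 15 genes in B cells without Ighd (circles) and Ighd-positive B cells (crosses) in the 3 groups, in CPM on a log axis with 95% Poisson intervals. Il7r, Sox4 and Vpreb3 are highest in the vehicle members, Igha stands out in the high-dose members alone, and Fcer2a is lower in the members of every group.

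The 254 members fell into 5 clusters by their other genes, with immunoglobulin and mitochondrial genes left out. A pair of clusters of 67 cells each had B cell genes in front. The first was led by Fcmr, Cd55 and Ccr6 (25 vehicle, 30 low-dose and 12 high-dose cells), the second by Cr2, Trim7, Bank1 and Dtx1 (16, 32 and 19 cells). At a resolution of 0.3 the pair was 1 cluster of 135 cells, and with list and dose genes left out 1 cluster of 122, so the split between them depended on the setting. Another cluster, of 46 cells, was led by light chain genes, Jchain, Derl3, Txndc5 and Creld2, with 12 of 16 plasma cell markers raised. A smaller cluster of 25 cells was led by Prtn3, Ctsg, Mpo and Elane, the granule proteases and peroxidase of developing granulocytes, and had all 12 neutrophil markers raised. The last cluster, of 49 cells, was led by Vpreb1, Il7r, Atp1b1, Tifa and Fam129c, had Akap12, Vpreb3 and Rag1 among its 10 leading genes. It had 6 of 12 early B cell progenitor markers raised and also 5 of 8 transitional B cell markers (Vpreb3, Cd93, Cd24a, Tspan13 and Sox4), so it was given neither name and is called the early-gene cluster.

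Depth differed between these clusters. The median was 3238 UMIs in the Fcmr cluster, 3334 in the Cr2 cluster and 2795 in the early-gene cluster. It was 11343 in the plasma-gene cluster and 27138 in the granulocyte-gene cluster. A doublet caller (Scrublet) marked 1 cell of the granulocyte-gene cluster and 0 of the others. In that cluster 13 of 25 cells had a UMI of Cd79a, against 49 of 49 in the early-gene cluster, and whether its cells are doublets was not tested further.

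The early-gene cluster held 48 vehicle cells, 0 low-dose cells and 1 high-dose cell. The high-dose cell was shallow, at 720 UMIs, with 0 UMIs of Vpreb3, Il7r, Sox4, Rag1, Akap12 and Cd93. It had 5 UMIs each of Ebf1 and Cd74 and 1 each of Cr2, Bank1, H2-Aa and Ms4a1. A cluster of vehicle cells was also found when the genes of all marker and pathway lists were taken out before clustering. All genes with at least 100 UMIs and past 2-fold in a dose comparison were taken out with them. The early cluster then held 38 vehicle cells, 0 low-dose and 0 high-dose cells, and all 38 were among the 49. By a floor of 3 counts, 0 of 96 low-dose cells allows a share of up to 3.12%. Of its cells, 23 had a UMI of Rag1, Rag2, Dntt, Igll1, Vpreb1 or Vpreb2, and 11 other members with such a UMI lay outside it. At the main setting these numbers were 30 and 4. The cluster was thus still found, with fewer cells, without the list genes and the genes called past 2-fold at 100 or more UMIs. Genes past 2-fold at lower counts stayed in. Whether the cluster forms apart from the difference between groups was thus not tested.

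**Figure D3:**
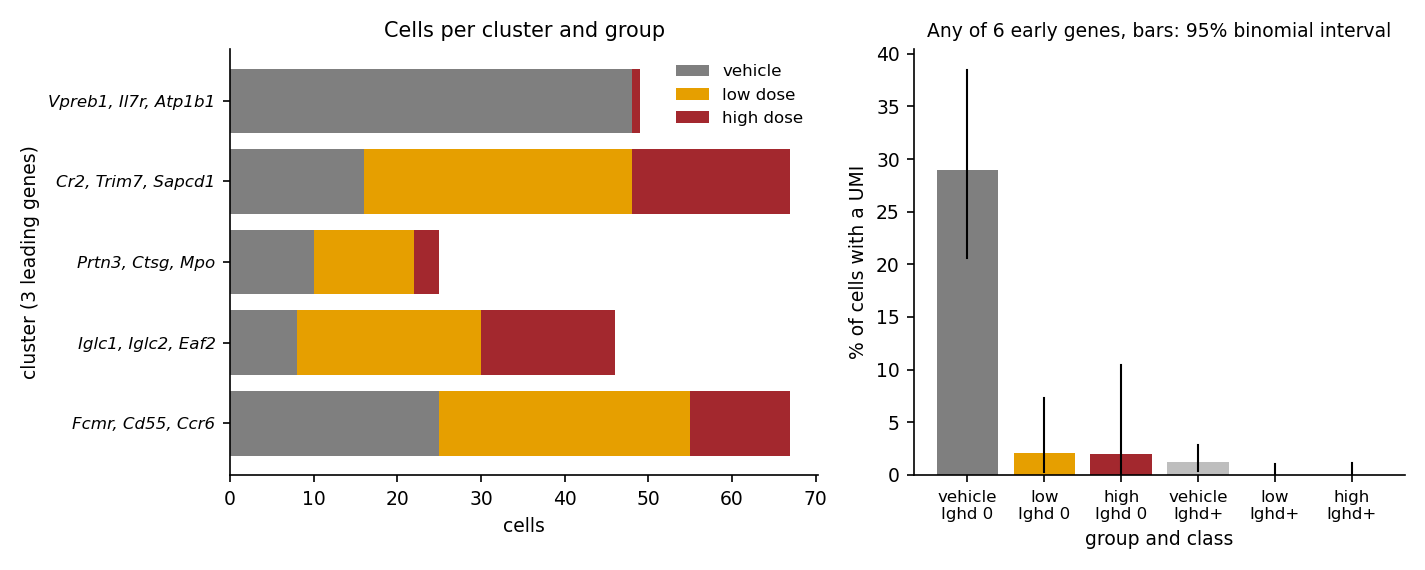
Left, cells per cluster (x axis, cells) colored by group, each cluster named by its 3 leading genes. Right, share of cells with a UMI of any of 6 early genes (Rag1, Rag2, Dntt, Igll1, Vpreb1, Vpreb2) with 95% Clopper-Pearson intervals, which is 29.0% in vehicle members and 2.08% or less in the other 5 sets.

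The 6 early genes, which encode recombination enzymes and the surrogate light chain, had 362 UMIs in 31 of 107 vehicle members, or 29.0% (20.6 to 38.5). They had 6 UMIs in 2 of 96 low-dose members (2.08%, 0.253 to 7.32) and 1 UMI in 1 of 51 high-dose members (1.96%, 0.0496 to 10.4). Thinned to 1000 UMIs, 17 of 95 vehicle members (17.9%) kept a UMI, and 0 of 86 low-dose and 0 of 45 high-dose members did. In T cells, chosen without Cd79a, Cd79b or Ms4a1 UMIs, the share as counted was 0.716%, 0.522% and 0.692%. The vehicle share stood far above this T cell share and both dosed shares were near it. The T cell share may understate free RNA.

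In Ighd-positive cells these UMIs were found in 5 of 400 vehicle cells (1.25%, 0.407 to 2.89, 143 UMIs), 0 of 365 low-dose cells and 0 of 331 high-dose cells. The upper limits of 1.01% and 1.11% in the dosed groups overlap the vehicle interval. Barcodes outside both B cell classes had 17, 20 and 100 UMIs of these genes. Of the 100 in high dose, 87 were Dntt. Early gene UMIs were thus still found in dosed barcodes outside the B cell classes.

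The same rule applied to the library labelled spleen gave 14, 10 and 20 members. Early gene UMIs were found there in 5 of 14 vehicle members (110 UMIs), 2 of 10 low-dose members (3 UMIs) and 0 of 20 high-dose members. These cells came from the same labelled treatments, were few, and were not used in any other value.

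Within the early-gene cluster the genes were spread unevenly. Rag1, a subunit of the recombinase, was found in 24 of 49 cells (49.0%, 34.4 to 63.7) and in 0 of the 205 other members. Il7r, the receptor for the cytokine that sustains B cell precursors, was found in 39 of 49 cells and in 14 of 205. Sox4, a transcription factor of precursors, was found in 37 and 14 cells. These 3 genes thus covered most of the cluster.

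The surrogate light chain was kept to fewer cells. Vpreb1 was in 10 of 49 cells and Igll1 in 8, and 8 cells had both. Dntt, the enzyme that adds bases at the joins, was in 6 cells, all 6 with Vpreb1. The 2 cells with the most early gene UMIs held 44.2% of the cluster's 353, and the median cell held 1.00. At this depth a cell with 0 UMIs of a gene is not shown to lack it.

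Ighm was found in all 49 cells, and Igkc, the kappa light chain, in 41. Of the 24 cells with Rag1, 21 had Igkc. Cd93, a surface marker of immature B cells, was in 27 of the 49 and Ms4a1 (CD20) in 5. The class II gene H2-Aa was in 2 of 49 cells (4.08%) against 176 of 205 other members (85.9%), and Cd74, the invariant chain, in 7 against 190. Mki67, a marker of dividing cells, was in 3 of the 49, and Kit and Cd34, of earlier progenitors, in 0.

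Vpreb1 and Igll1 lie next to each other on chromosome 16. The 250 bases before each start annotated by RefSeq are shown because both genes were found in the same cells, with every CANNTG (an E box, its own reverse complement) in capitals (GRCm38.p6, minus strand; chr16:16869256-16869505 for Vpreb1 and chr16:16863986-16864235 for Igll1).
Vpreb1: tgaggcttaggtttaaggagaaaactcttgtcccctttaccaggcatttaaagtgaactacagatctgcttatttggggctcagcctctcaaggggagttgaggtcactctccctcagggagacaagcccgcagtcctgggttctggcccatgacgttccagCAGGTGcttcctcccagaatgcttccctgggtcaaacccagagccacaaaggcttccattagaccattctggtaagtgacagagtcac
Igll1: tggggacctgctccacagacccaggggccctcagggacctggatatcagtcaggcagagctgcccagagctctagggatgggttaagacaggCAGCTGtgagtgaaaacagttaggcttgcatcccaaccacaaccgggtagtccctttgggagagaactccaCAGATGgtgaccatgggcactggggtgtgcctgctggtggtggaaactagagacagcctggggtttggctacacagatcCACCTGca
The Vpreb1 window held 1 match and the Igll1 window 3. Of the 12 genes of the early progenitor list, 11 were matched by symbol, and 9 of these held the motif, against 66.2% of all 32851 windows. A palindromic EBF-type motif of 10 letters was also searched and was in 0 of the 11 windows and in 0.779% of all. The matches are letters only, and no binding was measured.

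Plasma cell genes came from few, deep cells. Jchain stood at 5464 CPM in vehicle members, 10932 in low dose and 12364 in high dose, and was found in 10, 15 and 11 cells. In Ighd-positive cells it was at 13.6, 9.94 and 160.5 CPM. At equal depth the share of members with Jchain was 8.42%, 16.3% and 20.0%, against 0.576%, 0.630% and 0.696% of T cells. All 3 groups thus lay above these T cells, whose share may understate free RNA.

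The plasma-gene cluster had 8 vehicle, 22 low-dose and 16 high-dose cells. Its size in high dose depended on the clustering, with 9, 24 and 12 cells at a resolution of 1.0 and 11, 23 and 7 with list and dose genes left out. Only part of them were strong in Jchain, with at least 100 UMIs in 2 vehicle cells, 10 low-dose cells and 5 high-dose cells. Mki67 was found in 2, 8 and 7 of its cells. The highest cell had 1274 Jchain UMIs in vehicle, 1437 in low dose and 1815 in high dose.

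The heavy chain counts were also carried by few cells. Ighm summed to 23861 CPM in vehicle members, 32576 in low dose and 6883 in high dose. Of the 16420 vehicle UMIs, 8304 lay in the granulocyte-gene cluster. In the pair of B cell clusters Ighm was at 3808, 6574 and 15506 CPM, so high dose was the highest there and the lowest over all members. In the Fcmr cluster of this pair Ighm summed to 3820 UMIs over 67 cells, while the median cell held 10.0. The high-dose cells of the pair had 459 Jchain UMIs in 2 cells. The part of single cells in this order was not tested. In Ighd-positive cells Ighm was at 2597, 2294 and 3431 CPM. Igha, the IgA heavy chain, was at 23.3 CPM in vehicle (16 UMIs), 0 in low dose and 20924 in high dose (10794 UMIs in 7 cells). High dose was above vehicle by 9.81 on the log2 scale (9.11 to 10.62). The 4 highest cells, with 3611, 3492, 2797 and 870 UMIs, made up 99.8% of the high-dose sum.

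Within the plasma-gene cluster, the constant region gene with the most UMIs (at least 10) was Ighm in 5 vehicle cells and in 13 low-dose cells. In high dose it was Ighm in 5 cells, Igha in 4 and Ighg1 in 2. The other 3, 9 and 5 cells had no heavy chain gene at 10 UMIs. At this minimum and within this cluster, switched heavy chains were thus leading in high-dose cells alone, over 16 cells from 1 pool. Whether those high-dose cells came from 1 mouse or both cannot be told apart. Under the minimum, a low-dose cell had 6 UMIs of Ighg3 and 2 of Ighm, and Ighg2a was not scored. Over all members, UMIs of switched heavy chain genes were found in 10 vehicle, 14 low-dose and 17 high-dose cells.

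**Figure D4:**
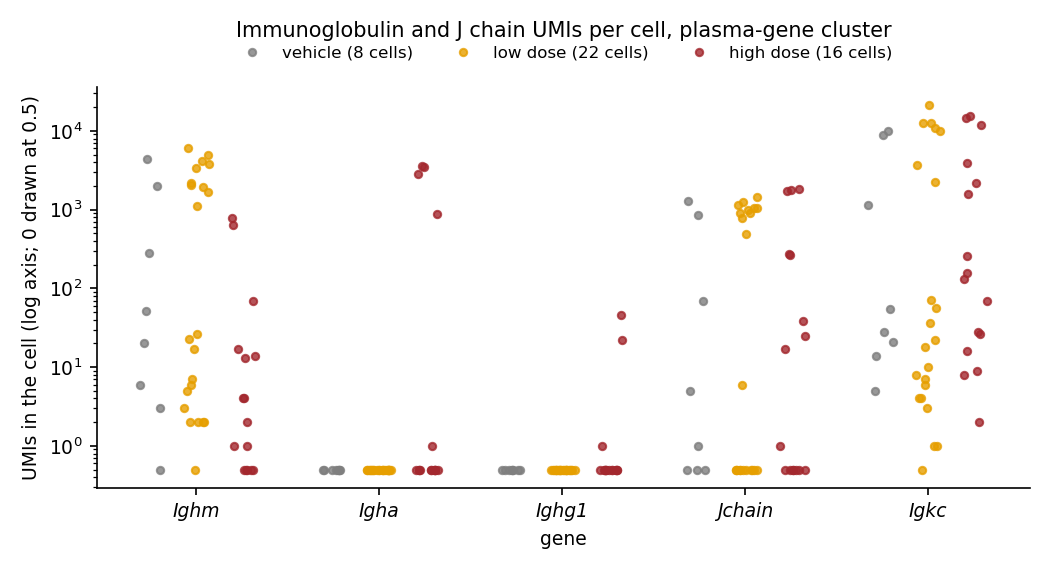
UMIs per cell (log axis) of 5 immunoglobulin and J chain genes in the 46 cells of the plasma-gene cluster, 1 point per cell, colored by group. Igha is above 100 UMIs in 4 high-dose cells and at 0 in all vehicle and low-dose cells, while Ighm is above 100 UMIs in 10 low-dose cells.

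Granulocyte genes also differed between groups. Prtn3, a granule protease, was at 1684 CPM in vehicle members, 2370 in low dose and 631.9 in high dose, from 7, 8 and 3 cells. S100a8, an abundant neutrophil protein, was at 4675, 12725 and 401.3 CPM, from 89, 83 and 51 cells. The 12 neutrophil markers summed to 11660, 30393 and 1039 CPM, and the 5 highest cells gave 88.0%, 93.8% and 35.4% of these sums. In Ighd-positive cells they summed to 5428, 5511 and 1586 CPM, with 64.0%, 74.6% and 11.9% of these sums in 5 cells. At 1000 UMIs, S100a8 was found in 41.1%, 46.5% and 28.9% of members and in 47.4%, 46.0% and 40.1% of T cells. Its share in members was thus near that in T cells in low dose and under it in vehicle and high dose. In the granulocyte-gene cluster Cd79a was at 97.9 CPM and Cd79b at 108.3, against 2657 and 2087 in the early-gene cluster. Both genes were used by the rule, so these levels are a description.

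Between members and Ighd-positive cells, 81 of 2458 genes were higher past 2-fold in all 3 groups (3.30%) and 157 were lower (6.39%). When the CPM of single cells were averaged in place of summing UMIs, 23 were higher and 3 lower, so most of the lower calls below rest on summed UMIs, in which deep cells weigh most. The median of all genes was shifted by -0.01 in vehicle, -0.28 in low dose and -0.13 in high dose on the log2 scale. Since the rule split the cells on Ighd, this contrast is a description. Among the genes with the firmest differences were Jchain, Igkc and Slpi, which follow the plasma-gene cluster, and Ctsg, Prtn3, Mpo, Lyz2, Ly6c2 and Ifitm3, which granulocytes and monocytes express. Cks1b, of the cell cycle, was at 125.0, 134.1 and 195.8 CPM in the members and 27.8, 23.2 and 16.3 in Ighd-positive cells.

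Lower in all 3 groups were genes of resting follicular B cells. Fcer2a (CD23), the low-affinity IgE receptor, was at 21.8, 17.2 and 34.9 CPM in the members against 279.7, 196.8 and 233.6. Fcmr, the IgM receptor, was at 129.3, 73.4 and 108.6 against 730.6, 518.2 and 623.4. Bank1, an adaptor of B cell receptor signaling, was at 133.7, 134.1 and 174.5 against 584.3, 621.5 and 727.8. Pxdc1, H2-DMb1, Cd55 and Icosl were also lower, by log2 ratios of -2.12 to -4.80, and Hvcn1, a proton channel, was at 55.2, 27.2 and 67.8 CPM against 257.0, 179.6 and 271.2.

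By list, 8 of 10 follicular genes were lower in all 3 groups and 0 higher, with a median log2 ratio of -1.79. Over all tested genes 6.39% were lower and 3.30% higher. Ighd is on the follicular list and was set by the rule, and without it 7 of 9 were lower, with a median of -1.72. Also, all 10 MHC class II genes were lower, with a median of -1.91. Of 8 tested migration receptor genes 6 were lower, among them Cxcr5, which guides B cells to follicles, and Ccr7, which guides them to T cell zones. Of the B cell identity genes, leaving out Cd79a, Cd79b and Ms4a1, which the rule used, 7 of 18 were lower and 0 higher. The 15 cell cycle genes summed to 3531, 2792 and 3749 CPM in the members and 1138, 1135 and 739.9 in Ighd-positive cells, with 66.8%, 68.8% and 86.9% of the members' sums in 5 cells. The 16 plasma cell genes summed to 6417, 13410 and 34640 CPM against 282.5, 253.8 and 487.8. For these 2 lists the sums are given over every listed gene, since the genes with enough UMIs were those high in the members.

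Without the early-gene, plasma-gene and granulocyte-gene clusters few of these differences were left. In the 134 members of the other pair of clusters (41 vehicle, 62 low-dose and 31 high-dose cells), 1 of 1943 genes was higher past 2-fold in all 3 groups and 4 were lower. The higher gene was Zbtb20, a transcription factor named after its values were seen, at 385.3, 482.3 and 683.1 CPM against 170.2, 229.3 and 147.0. The lower ones were Ighd, Fcer2a, Pxdc1 and Ifitm1, the last with 5 UMIs in high dose and a log2 ratio there of -1.07 whose interval (-2.72 to 0.19) spans 0. H2-Aa was at 3572, 2685 and 4036 CPM in these 134 cells and at 4375, 3662 and 4618 in Ighd-positive cells, a difference under 2-fold in each group. These cells were chosen as clusters on the same counts, so this too is a description.

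Cr2 in these 134 cells was at 274.3, 466.9 and 431.8 CPM, against 351.7, 343.2 and 543.9 in Ighd-positive cells. In the Cr2 cluster, the marginal zone genes Cr2, Cd1d1, Dtx1, Tm6sf1, Notch2 and Marcks were raised over the other members (6 of 15 listed). Cd1d1, which presents lipids, was at 62.5 CPM there and at 106.5 in the early-gene cluster. Since 5 of 10 follicular genes were also raised there, the cluster was not given a marginal zone name.

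High dose was compared with vehicle over 1620 genes with at least 100 UMIs. In the members 10 genes were higher past 2-fold (0.617%) and 100 lower (6.17%), and 53 and 187 when the CPM of single cells were averaged. The Ighd-positive cells of the same groups had 8 of 3971 genes higher (0.201%) and 52 lower (1.31%). Low dose against vehicle gave 59 of 2247 genes higher (2.63%) and 136 lower (6.05%) in the members, and 21 of 4148 higher (0.506%) and 7 lower (0.169%) in the Ighd-positive cells. Both doses share the vehicle cells, and the median of all genes was shifted by -0.06 in high dose and -0.22 in low dose.

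The genes that were lowest against vehicle were largely those of the early-gene cluster. Il7r was at 231.1 CPM in vehicle members, 9.06 in low dose and 0 in high dose, at least 39.7-fold lower by a floor of 3 counts over the group. Sox4 was at 319.7, 39.0 and 34.9 CPM, and Akap12, a scaffold protein, at 165.7, 1.81 and 13.6. Vpreb1 was at 218.0, 0.906 and 0 CPM. In Ighd-positive cells Il7r was at 32.9, 20.5 and 9.94 CPM.

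Tifa, an adaptor of NF-κB signaling, was at 143.9 CPM in vehicle members, 5.44 in low dose and 1.94 in high dose, and Fam129c at 232.5, 10.9 and 3.88. Cecr2, a chromatin remodeling factor, was at 175.8, 6.34 and 3.88 CPM, and Atp1b1, a subunit of the sodium pump, at 340.0, 11.8 and 15.5. Each was found in 42 to 55 of 107 vehicle members. With the early-gene cluster left out, Sox4 was at 30.2, 39.0 and 34.9 CPM, Akap12 at 22.7, 1.81 and 13.6 and Il7r at 20.8, 9.06 and 0, each from at most 43 UMIs a group. Of the 12 genes of the early progenitor list, 4 had enough UMIs, and they had them through vehicle, so their direction is no support. Over all 12 the sum was 838 UMIs in vehicle (1218 CPM), 98 in low dose (88.8 CPM) and 77 in high dose (149.3 CPM), with 0, 4 and 8 genes at 0.

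The hemoglobin genes were also lower, and here 1 cell decided the values. Hbb-bs was at 3911 CPM in vehicle, 39.9 in low dose and 27.1 in high dose, and 1 vehicle barcode held 98.7% of the vehicle sum. For Hba-a1, Hba-a2 and Hbb-bt the top cell held 99.2%, 98.8% and 96.9%. Klf1, a transcription factor of red cell precursors, was at 0 in all 3 groups of members.

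Besides Igha, 8 genes outside the variable regions were higher past 2-fold in high dose. Ighg1, an IgG heavy chain, had 82 UMIs in 4 high-dose cells and 31 UMIs in 3 vehicle cells, higher by 1.82 on the log2 scale. Apoe, a lipid carrier, was at 651.3 against 200.5, with 331.5 in low dose, and 1 cell held 43.2% of the high-dose sum. Commd7 was at 166.7 against 72.7 CPM, with 65.1% of the high-dose sum in 1 cell, and Snrpa1, Jchain, Pdia4, Lmo2 and Sypl were higher by 1.02 to 1.18 on the log2 scale. Without the early-gene cluster Jchain was at 0.80, Pdia4 at 0.99, Lmo2 at 0.65 and Sypl at 0.78, no longer past 2-fold. Pdia4, which folds proteins in the endoplasmic reticulum, was at 100.3 CPM in vehicle, 432.1 in low dose and 209.4 in high dose.

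In low dose the genes furthest above vehicle were Camp, Iglc1, Iglc2, Ltf and Slpi. Camp and Ltf, of neutrophil granules, were at 1007 and 443.9 CPM against 79.9 and 55.2, with 59.9% and 56.3% of the low-dose sums in 1 cell each. Iglc1, a lambda light chain, was at 10849 against 1160 CPM, with 94.9% in 1 cell. Iglc2, whose sequence is close to other lambda genes so that reads may be split between them, was at 8809 against 1017 CPM, and 2 cells with 4690 and 3944 UMIs held most of the 9724. The direction turned for 4 of the 5: with both Cd79a and Cd79b required, Camp was at -2.39 and Ltf at -2.61 on the log2 scale, and without the 3 clusters Iglc1 was at -2.65 and Iglc2 at -1.42.

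Of all tested genes in the members, 6.17% were lower past 2-fold in high dose and 6.05% in low dose, and 0.617% and 2.63% were higher. Without the early-gene cluster 4.02% and 2.96% were lower, and 0.455% and 2.14% higher. B cell identity genes were lower past 2-fold in 5 of 19 tested in high dose, with a median of -0.45, and in 9 of 20 in low dose, with a median of -0.92 and 1 higher. In high dose these were Ebf1, Vpreb3, Cd72, Fcrla and Spib. The higher gene in low dose was Cr2, at 152.2 against 69.8 CPM. Without the early-gene cluster 0 of 15 tested identity genes were past 2-fold in high dose, with a median of -0.03, and in low dose 3 of 17 were lower (Pax5, Vpreb3 and Cd72) and 0 higher, with Cr2 at 152.2 against 90.7 CPM. Of 6 tested genes of B cell receptor signaling, Syk and Lyn, its first kinases, were lower in high dose (116.3 against 241.2 CPM and 102.7 against 206.4), and 1 of 8 was lower in low dose. Among members outside the early-gene cluster 0 of 5 were past 2-fold in high dose and 1 of 6 (Ptpn6) was lower in low dose. Of 5 tested activation and immediate early genes, Jun and Jund were lower in high dose, at 77.5 against 289.2 CPM and 190.0 against 560.9, and 0 of 10 were past 2-fold in low dose. Jun and Jund were also lower without the early-gene cluster.

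Of 10 tested cell cycle genes 0 were past 2-fold in high dose, with a median of 0.10, and of 12 in low dose Stmn1 was lower (167.6 against 373.5 CPM), with a median of -0.28. Of 6 heat shock and 6 MHC class II genes 0 were past 2-fold in either dose, with medians of 0.60 and 0.55 in high dose and 0.15 and -0.01 in low dose. Of the p53 targets, a pathway that CBL0137 is known to engage, 2 of 14 had enough UMIs and neither was past 2-fold in either dose. Only 1 interferon-stimulated gene could be tested in high dose and it was not past 2-fold, and of 3 in low dose Bst2 was higher (96.0 against 33.4 CPM) and Ifi27l2a lower (117.8 against 322.6). For these short lists the counts set the limit.

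**Figure D5:**
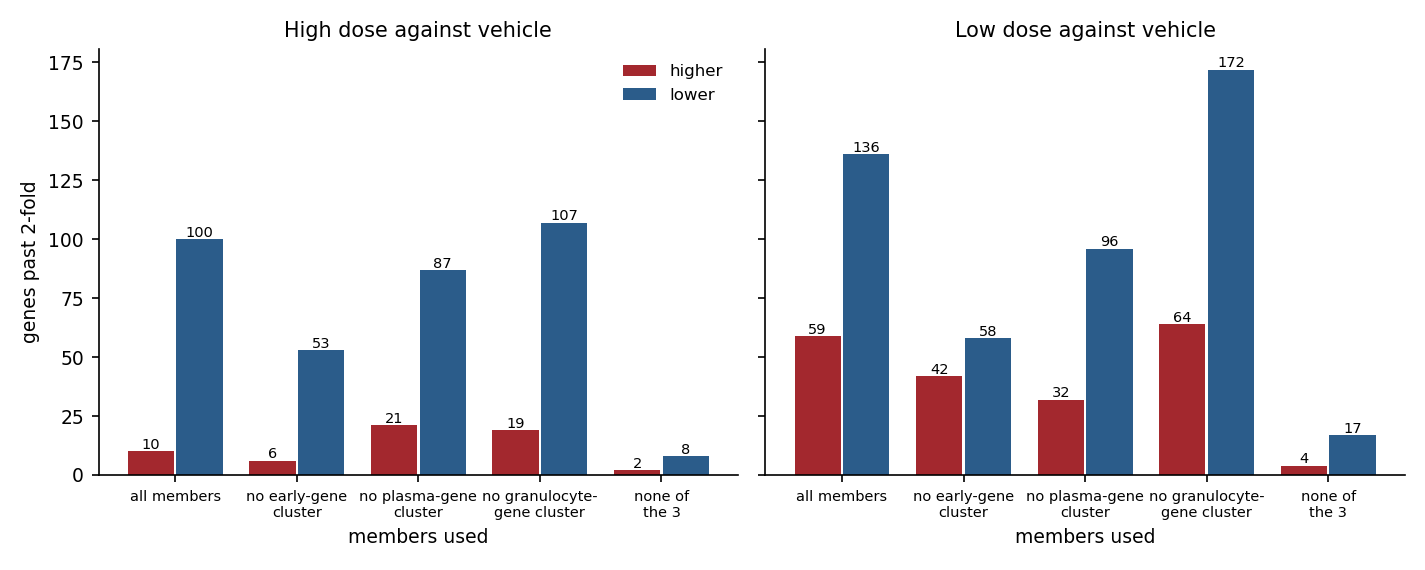
Number of genes past 2-fold (y axis) in high dose (left) and low dose (right) against vehicle, higher and lower, over all members and with 1 or all of 3 clusters left out. The lower genes go from 100 to 53 in high dose and from 136 to 58 in low dose without the early-gene cluster, and to 8 and 17 without all 3 clusters, where fewer genes had enough UMIs (272 and 478, against 1620 and 2247).

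Without the early-gene cluster, 6 of 1319 tested genes were higher (0.455%) and 53 lower (4.02%) in high dose, and 42 and 58 of 1960 in low dose (2.14% and 2.96%). Without all 3 clusters, 2 of 272 tested genes were higher (0.735%) and 8 lower (2.94%) in high dose, and 4 and 17 of 478 in low dose (0.837% and 3.56%). The counts dropped in part because fewer genes reached 100 UMIs, and the share of lower genes was also smaller. Named after their values were seen, the genes lower in both doses among these cells were Vpreb3 (698.8 CPM in vehicle, 138.2 in low dose, 157.0 in high dose), Klf2, a regulator of B cell trafficking (829.4, 196.6 and 235.5 CPM), Vim, Ifi30, Ifi27l2a and Iglc1. Jchain was higher in both doses, from 2 cells in each group. Both doses share the vehicle cells here too, and the groups differed in their mix of the pair of clusters. The Fcmr cluster held 25 of the 41 vehicle, 30 of the 62 low-dose and 12 of the 31 high-dose cells. Vpreb3 was at 391.4 CPM in that cluster and 187.6 in the Cr2 cluster, and Klf2 was raised in the Fcmr cluster alone of the pair. The part of this mix in the differences was not tested.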

How the data were processed

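The authors deposited UMI counts per gene and hashtag for each barcode, not normalized, made with Cell Ranger (5.0.0 in the matrix header, 6.0.0 in the submitters' processing notes) on mm10, and no cell annotation was used. Members ranged from 557 to 87300 UMIs. The members and lists were chosen with earlier results of these data known. Summed counts were scaled to CPM, with Poisson intervals, and exact conditional binomial intervals were computed for ratios. A gene was called past 2-fold with at least 100 UMIs over both sets. The genes named were the 10 furthest in each direction (5 for low dose), immunoglobulin variable genes left out, and genes of the lists; some of these are not reported here. Clusters came from 2000 variable genes, 20 principal components, 15 neighbours and Leiden at 0.6 (scanpy 1.11.5), were named after their genes were seen, and doublets within a hashtag were kept. Scrublet marked 2.59% of barcodes. The ratio was tested on simulated Poisson counts without variation between cells. Its intervals were thus not tested for genes carried by few cells. Positions are from GENCODE M21 and promoters from RefSeq (GRCm38.p6). Python 3.11.15, numpy 2.4.6, scipy 1.17.1, R 4.3.3 and Seurat 5.3.0 were used.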

Additional observations from a re-analysis of the deposited data

Results flagged for a closer look

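Cells outside the comparisons met the same rule. In the library labelled spleen 44 barcodes with a hashtag group were B cells without Ighd, and the vehicle ones held 110 UMIs of the 6 early genes. In the library labelled liver 28 further barcodes met the rule but had no hashtag group, and 2 of them had an early gene UMI.

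Over all members, Ebf1 and Vpreb3 stood on opposite sides of the Ighd-positive cells in different groups. Ebf1 had a log2 ratio of 0.16 in vehicle, -1.92 in low dose and -1.64 in high dose. Vpreb3 had 1.75 in vehicle, -1.69 in low dose and -0.71 in high dose. Without the early-gene cluster vehicle members were at 632.9 CPM for Ebf1 and 300.4 for Vpreb3, under the 1596 and 406.7 of Ighd-positive cells. Both genes were then lower in every group. This did not hold when the plasma-gene and granulocyte-gene clusters were left out as well. Vehicle members were then at 1750 CPM for Ebf1 (1547 to 1973), near Ighd-positive cells, and at 698.8 for Vpreb3 (572.7 to 844.4), above them. With 1 pool per group the difference between groups was not tested. No group had the 4 or more samples needed to look for an outlying sample.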

How the results depend on the processing

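The share of assigned barcodes was lower than in vehicle in all 9 alternatives, from -0.368 points (low dose in place of high dose) to -0.980 points, and high dose minus vehicle in the thinned share of B cells without Ighd ran from -7.75 points (no thinning) to 0.833 points (thinned to 500 UMIs). The share of members with an early gene UMI, high dose minus vehicle, was -27.0 points and ran from -32.6 to -27.0 in 7 alternatives added after seeing the data, as were all settings that leave out clusters. These alternatives did not include thinning, given above, or a higher minimum. With at least 2 early gene UMIs the share was 17.8% in vehicle and 0 in high dose, and with at least 5 it was 7.48% and 0. Dosed cells in the early-gene cluster numbered 1, and 0 at resolution 0.3, at 1.0 and without list and dose genes. Genes past 2-fold depended on depth and on few cells. With a minimum of 50, 200 or no UMIs, high dose gave 32, 5 and 883 higher and 240, 44 and 1484 lower. Low dose gave 108 higher at 50 and 600 with no minimum, and 332, 56 and 1820 lower. The contrast with Ighd-positive cells gave 124, 45 and 403 higher, and 99 lower at 200 and 346 with no minimum. Averaging the CPM of cells gave 53 higher and 187 lower in high dose, and 23 higher and 3 lower against Ighd-positive cells. That contrast gave 102 lower with hashtags at 10 times the next, 29 higher and 84 lower with at least 5 B gene UMIs, and 23 and 71 with both Cd79a and Cd79b. Leaving out clusters gave 6 higher and 53 lower (early) in high dose, 21 higher (plasma), 19 higher (granulocyte), and 2 and 8 without all 3. In low dose it gave 58 lower (early), 32 higher (plasma), and 4 and 17. Against Ighd-positive cells it gave 72 lower (plasma), 15 higher and 53 lower (granulocyte), and 1 and 4. Of 404 values for 29 named genes, 337 stayed past 2-fold, 61 did not, and 6 reversed. In low dose Camp was at -2.39 and Ltf at -2.61 with both Cd79a and Cd79b, Iglc1 at -1.03 with HTODemux, -2.03 without the plasma-gene cluster and -2.65 without all 3, and Iglc2 at -1.42 without all 3. The causes were not tested. No paired analysis was possible because each group was 1 pooled sample, so no sample could be left out. Scrublet marked 1 barcode (0.0207%) in the library labelled spleen and so did not work there.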

Other observations

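Germinal center genes were too low to test in the members. The 10 listed genes summed to 68.3 CPM in vehicle, 75.2 in low dose and 310.2 in high dose, with 61.7%, 73.5% and 88.1% of these sums in 5 cells, and to 42.5, 46.4 and 32.0 CPM in Ighd-positive cells.

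Zeb2, a transcription factor, was at 306.6 CPM in vehicle members, 48.9 in low dose and 38.8 in high dose, and in Ighd-positive cells at 87.4, 94.8 and 60.4. Myb, a factor of precursors and dividing cells, was at 204.9, 55.3 and 62.0 CPM in the members and was found in 31 of 49 cells of the early-gene cluster and 26 of 205 others.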
